A study of Homo sapiens with 6 samples.

Results

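The genes described here were the core and variant histone genes of human HEK293-T cells together with SLBP, the protein that binds the stem-loop at the end of histone mRNAs. They were chosen by symbol: the prefixes of the linker histone (H1-), core histone cluster (H2AC, H2BC, H3C, H4C) and variant (H2AZ, H2AX, H2AJ, H3-, MACROH2A) genes, and SLBP. The rule gave 41 of the 16834 genes in the deposited table, with 29 replication-dependent genes, 11 variants and SLBP. HEK293-T is a human embryonic kidney line, labelled as epithelial-like cells, and the cells carried the ccTaggedRP construct at a single Flp-In site under the ubiquitous CAG promoter. The construct encodes 2 tagged copies of the ribosomal protein RPL10a, made from the same mRNA in the same asynchronously cycling cells. Flag-RPL10a-hCdt carries the Cdt1 degron and is removed from late S phase through mitosis, and HA-RPL10a-hGem carries the Geminin degron and is removed in late G1 and early S phase. Ribosomes were pulled down with Flag or HA antibody, and poly(A) RNA recovered from 3 Flag-IPs and 3 HA-IPs was sequenced from both ends in reads of 150 bp. No source used here states that the replicates were separate cultures, so p-values measure the spread between these libraries, which may be technical.

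Histones package DNA, with H2A, H2B, H3 and H4 forming the nucleosome core and H1 binding the linker. The replication-dependent genes lie in clusters, are mostly transcribed in S phase and give the only metazoan mRNAs that end in a stem-loop in place of a poly(A) tail. SLBP binds that stem-loop for 3' end cleavage, translation and decay. Variant histones are encoded by scattered genes, are made throughout the cell cycle and have polyadenylated mRNAs. The libraries were made from poly(A) RNA, a selection that favours mRNAs with a tail and captures those ending at the stem-loop poorly.

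A histone stem-loop was found in 28 of the 29 replication-dependent genes, in all but the pseudogene H2BC20P, and in the variant H2AX, a gene known to give both forms of mRNA. The 29 windows of 26 bases (GRCh38, gene models of GENCODE release 44) held 22 different sequences, and their 16-base stem-loops held 8, of which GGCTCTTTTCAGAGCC was carried by 14 members. The sequences are printed because 1 of them was carried by the 4 replication-dependent members called between the immunoprecipitates, which was noticed after the values were seen. Capitals mark the stem-loop, lower case marks the 5 bases on each side, and all are read in the direction of the gene.
H2BC6, H2BC13, H2BC15 and H2BC17: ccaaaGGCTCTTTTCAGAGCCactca
H1-4, H1-5, H2BC21 and H3C10: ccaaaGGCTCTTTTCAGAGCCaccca
H2BC4 and H2BC7: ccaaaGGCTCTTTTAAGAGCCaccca
H2BC12: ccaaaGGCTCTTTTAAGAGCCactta
H2AW (H2AC25 in GENCODE): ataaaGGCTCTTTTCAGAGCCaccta
H4C8: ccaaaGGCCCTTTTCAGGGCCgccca
H2AX: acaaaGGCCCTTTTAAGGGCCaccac

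The stem-loop of H2BC6 lies at chr6:26184210-26184225 on the plus strand, that of H2BC13 at chr6:27807484-27807499 on the minus strand, that of H2BC15 at chr6:27839090-27839105 on the plus strand and that of H2BC17 at chr6:27893870-27893885 on the plus strand. Among the 69 annotated replication-dependent coding genes with a stem-loop, those 4 genes were the ones with that 26-base sequence. Counting from 1 at the 5' end of the 26 bases, H1-4, H1-5, H2BC21 and H3C10 differed from it by T24C, a base outside the stem-loop. H2BC4 and H2BC7 differed from it by C15A and T24C, and H2BC12 by C15A and C25T. H2AW, a gene of this class that the symbol rule does not take, was also called higher in the Flag-IPs (limma adjusted p = 0.0356) and carries another window, so the shared sequence holds for the called members and not for every called gene of the class.

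Each deposited value is a count of reads scaled by the library's size factor, called normalized counts here. The libraries held 23174532 to 44134833 reads. After the authors' filter of 10 reads in 3 libraries, the table covered by identifier 30 of the 70 replication-dependent coding genes that GENCODE annotates. H2B was the family with the most genes present, 12 of 19, and H3 the one with the fewest, 2 of 13. H2BC17 and H3-5 had under 10 reads in every HA-IP and so entered the table through the Flag-IPs. H2BC6 and H2BC13 had 10 reads or more in 2 HA-IPs and H2BC7 in 1, so these met the filter only with the Flag-IPs. H4C3 went the other way, with 10 reads or more in 2 Flag-IPs and 3 HA-IPs. In all, 9 members had 10 reads or more in fewer than 6 libraries. The labelled cell type should lack most heart muscle genes, although RYR2 and ACTN2 had means of 720 and 296 in the HA-IPs. Heart muscle genes had been seen earlier to be high in the Flag-IPs of these data. Of 25 heart muscle markers listed, 20 were measured. These 20, the 5 defining ones included, were all called higher in the Flag-IPs. Their share of all normalized counts was 0.709%, 0.518% and 0.33% in Flag-IP replicates 1 to 3, compared with 0.0112%, 0.00676% and 0.0635% in HA-IP replicates 1 to 3. Of 8 fibroblast markers listed, 7 were measured and 6 called higher in the Flag-IPs. Of 6 endothelial ones, 4 were measured and 3 called higher there. Of 4 blood markers PTPRC alone was measured, and it was called higher in the Flag-IPs. Of 8 markers of the line, 6 were not called, VIM among them with a mean of 24992 in the Flag-IPs and 24531 in the HA-IPs, and PAX2 and PAX8 were called higher in the Flag-IPs. Of the adult nephron markers 2 were measured, SLC12A1, which was called higher in the Flag-IPs, and AQP1, which was not called.

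Per kilobase of the canonical transcript, the replication-dependent genes had a median level of 85.4 normalized counts, with a range of 13.7 to 825. The variants had a range of 10.5 to 6879. These levels depend on the length used. Over the length of all annotated exons, H2AJ had 71.8 in place of 386, MACROH2A1 681 in place of 6040 and H2BC15 56.9 in place of 447. All but 5 of the 29 replication-dependent genes had a mean under 100 normalized counts. Together they made up 3.30% to 5.14% of the histone counts in a library. H2BC12 was the highest replication-dependent gene per kilobase and H3-3B, which encodes the replacement histone H3.3, the highest variant. The variant at the low end was H3-5, an intronless gene of the H3.3 type known from testis, at 10.5 per kilobase.

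**Figure D1:**
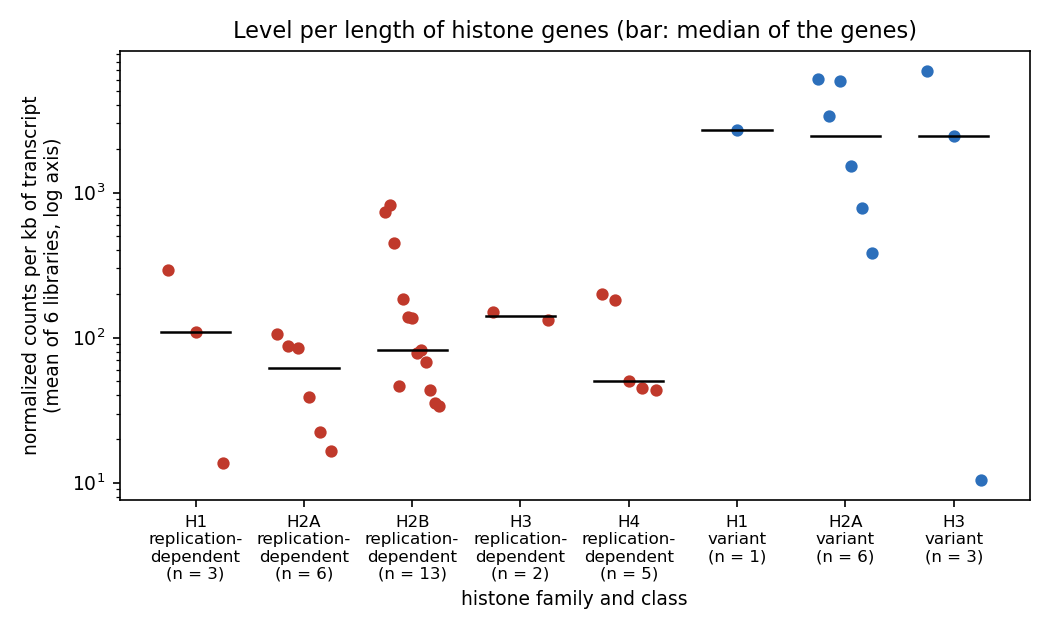
Mean normalized counts per kilobase of the canonical transcript over the 6 libraries for the histone genes apart from 1 variant (points), by family and class, on a log axis, with a bar at the median of the genes. The replication-dependent genes lie between 13.7 and 825 and the variants, apart from H3-5 at 10.5, between 386 and 6879.

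The question of the comparison was which mRNAs are bound by ribosomes that carry one tag or the other, as a measure of the cell cycle phases in which the tags persist. By limma with Benjamini-Hochberg adjustment over all genes and a threshold of 0.05 on the adjusted p, 8 histone genes were higher in the Flag-IPs and SLBP was higher in the HA-IPs. These calls covered 9 of 41 members, where 12.9% of all genes were called, 7.1% as higher in the Flag-IPs and 5.79% as higher in the HA-IPs. The 8 were the replication-dependent H2B genes H2BC6, H2BC13, H2BC15 and H2BC17 and the variants H2AJ, H3-3A, H3-3B and H3-5. Of these, H2BC6, H2BC13, H2BC17 and H3-5 met the authors' filter only with the Flag-IPs, where they were high. The filter thus favours members in that direction, which limits the count of calls and its comparison with all genes. edgeR and DESeq2 on the recovered reads called the same 8. No histone gene was called higher in the HA-IPs by limma, edgeR or DESeq2, and 1 of them, MACROH2A1, was higher there at an unadjusted p under 0.05. The libraries of the groups did not overlap for 13 members, 11 with every Flag-IP above every HA-IP and 2 the other way, where 32.2% of all genes did not overlap, 16.1% in each direction. In bulk RNA, fewer cells of a kind and less RNA of a gene per cell cannot be told apart, and the same holds for the number of tagged ribosomes.

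**Figure D2:**
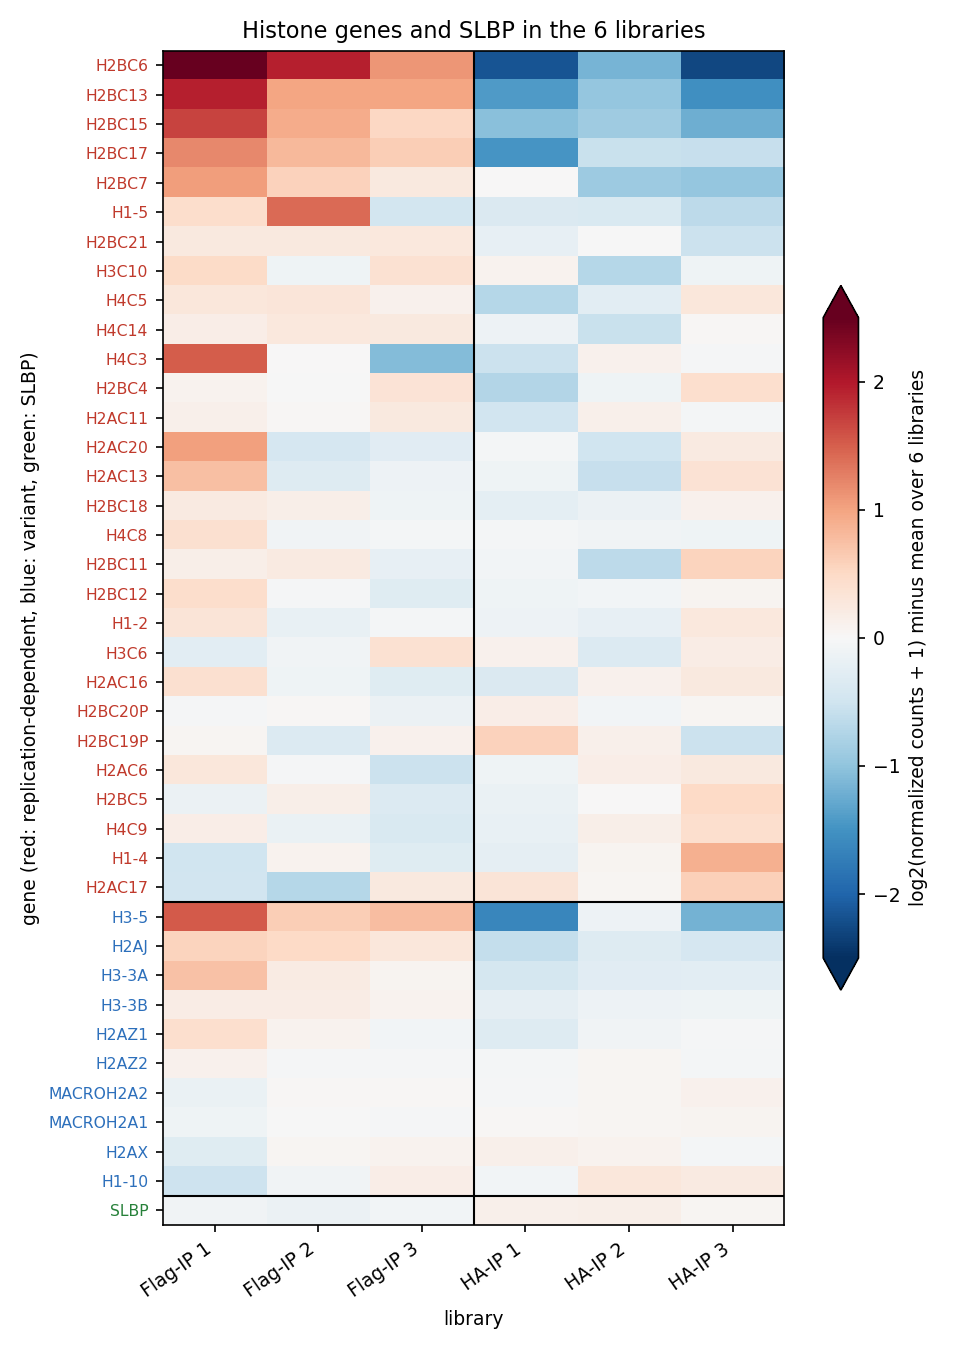
Heat map of log2(normalized counts + 1) minus the gene's mean over the 6 libraries for 40 of the 41 members, ordered by the difference within each class, with columns for the 3 Flag-IPs and 3 HA-IPs. H2BC6, H2BC13, H2BC15 and H2BC17 are above their mean in the 3 Flag-IPs and below it in the 3 HA-IPs, and most other rows are pale.

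H2BC6 had the largest difference of the members. It held 240.3, 160.6 and 89.5 normalized counts in the Flag-IPs, compared with 8.47, 17.8 and 7.72 in the HA-IPs. The lowest Flag-IP was above the highest HA-IP, and the HA-IP values rested on 7 to 18 reads. The mean was 163 ± 75.4 (SD, n = 3) in the Flag-IPs and 11.3 ± 5.63 (SD, n = 3) in the HA-IPs, 14.4-fold higher in the Flag-IPs. On the log2(normalized counts + 1) scale, which understates changes of low genes, the HA-IPs were lower by a difference of -3.72 (SE 0.39, limma adjusted p = 0.000302).

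H2BC15 was the most abundant of these H2B genes. It held 587, 347 and 260 normalized counts in the Flag-IPs, compared with 86.8, 97.1 and 77.2 in the HA-IPs. Flag-IP replicate 1 was the highest library and the groups did not overlap. Its log2 difference was -2.10 (SE 0.24, limma adjusted p = 0.000505), with a mean 4.57-fold higher in the Flag-IPs.

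H2BC13 held 96.1, 48.9 and 48.9 normalized counts in the Flag-IPs, compared with 8.47, 11.9 and 7.72 in the HA-IPs, again without overlap. Its log2 difference was -2.61 (SE 0.35, limma adjusted p = 0.00117). H2BC17 held 32.5, 24.5 and 21.2 in the Flag-IPs, compared with 4.23, 8.91 and 8.82 in the HA-IPs, with a log2 difference of -1.74 (SE 0.41, limma adjusted p = 0.0179). Leaving out Flag-IP replicate 1, Flag-IP replicate 2 or HA-IP replicate 1 ended the call of H2BC17, and no left-out library ended those of H2BC6, H2BC13 and H2BC15.

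Flag-IP replicate 1, with the most heart muscle counts, was also the highest library for each of these H2B genes. The same library was highest for many replication-dependent genes that were not called, among them H2BC12, H1-2 and H4C8, though not for all. This trait is thus not particular to the 4 genes. HA-IP replicate 3 held more heart muscle counts than the other HA-IPs, 0.0635% against 0.0112% and 0.00676%, and its summed count of the 4 genes was 101.4, against 108 and 136. Whether RNA of other cells has a part in the difference was not tested.

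The 4 genes lie in the histone clusters of chromosome 6 (GRCh38). H2BC6 is annotated at chr6:26172059-26184655 on the plus strand, where an unnamed gene overlaps it on the opposite strand. H2BC13 is at chr6:27807479-27807929 on the minus strand, H2BC15 at chr6:27838545-27855709 on the plus strand and H2BC17 at chr6:27893425-27893891 on the plus strand, and no other annotated gene overlaps those. All 4 canonical transcripts have 1 exon. H2BC6 and H2BC15 have an annotated transcript that runs on past the stem-loop, by 430 and 16604 bases, and H2BC13 and H2BC17 do not. Their coding sequences are close to those of other H2B genes, with 94.2% identity between H2BC13 and H2BC15, so reads could be shared or lost where copies match. Over the replication-dependent coding members, identity to the nearest annotated copy ran from 75.8% to 100%, with a median of 92.3%.

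The promoters are shown for the gene with the largest difference and for the most abundant of the 4, from the RefSeq table on GRCh38.p14, as the 250 bases before the start. Capitals mark matches on either strand to the CCAAT box (CCAAT), the octamer known from H2B promoters (ATTTGCAT) and the TATA box (TATAAA).
H2BC6, chr6:26183511-26183760, plus strand: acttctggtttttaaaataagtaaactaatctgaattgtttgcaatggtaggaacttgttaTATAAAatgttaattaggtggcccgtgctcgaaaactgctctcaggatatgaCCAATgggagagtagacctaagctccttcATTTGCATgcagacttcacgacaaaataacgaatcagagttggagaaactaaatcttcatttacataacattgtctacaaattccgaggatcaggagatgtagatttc
H2BC15, chr6:27838319-27838568, plus strand: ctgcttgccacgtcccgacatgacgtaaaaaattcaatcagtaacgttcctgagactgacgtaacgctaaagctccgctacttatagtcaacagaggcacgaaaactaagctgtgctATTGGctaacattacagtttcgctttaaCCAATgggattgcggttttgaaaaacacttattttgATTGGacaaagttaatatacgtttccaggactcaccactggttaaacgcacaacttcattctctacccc

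H2BC6 held all 3 motifs, H2BC15 held the CCAAT box, H2BC13 the CCAAT and TATA boxes and H2BC17 all 3. Windows were found for 36 of the 41 members, 43 in all. Some genes enter with several windows, among them H2BC5 and H2BC12 in the H2B set and H3-3A and MACROH2A1 in the variant set. The pseudogenes H2BC19P and H2BC20P have none. The CCAAT box was in 100% of the 13 replication-dependent H2B windows, against 32% of 35116 windows over all genes. The octamer was in 69.2% of them, against 1.63%, and the TATA box in 76.9%, against 10.7%. In the 13 variant windows these shares were 69.2%, 7.69% and 30.8%. A match of letters does not show that a site is used.

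The other 9 replication-dependent H2B genes were not called. H2BC7 was nearest to the threshold, with 29.9, 21.3 and 16.6 normalized counts in the Flag-IPs, compared with 14.1, 6.93 and 6.62 in the HA-IPs. The groups did not overlap, and the log2 difference was -1.24 (limma adjusted p = 0.0747). H2BC21 held 121, 120.2 and 122 in the Flag-IPs, compared with 87.5, 101.02 and 69.5 in the HA-IPs, also without overlap, with a log2 difference of -0.50 (limma adjusted p = 0.0787). Both are named for their adjusted p, after their values were seen.

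H2BC12, the most abundant replication-dependent coding gene, held 545, 397 and 326 normalized counts in the Flag-IPs, compared with 376, 382 and 423 in the HA-IPs. The groups overlapped, with a log2 difference of -0.07 (SE 0.15, limma adjusted p = 0.817). Its coding sequence is 98.9% identical to that of H2BC12L, so its count is uncertain. The pseudogene H2BC20P held 419, 434 and 387 in the Flag-IPs, compared with 480, 405 and 441 in the HA-IPs, with a log2 difference of 0.09 and with a gene on the same strand that overlaps it. The pseudogene H2BC19P had a log2 difference of 0.11, and neither was called.

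**Figure D3:**
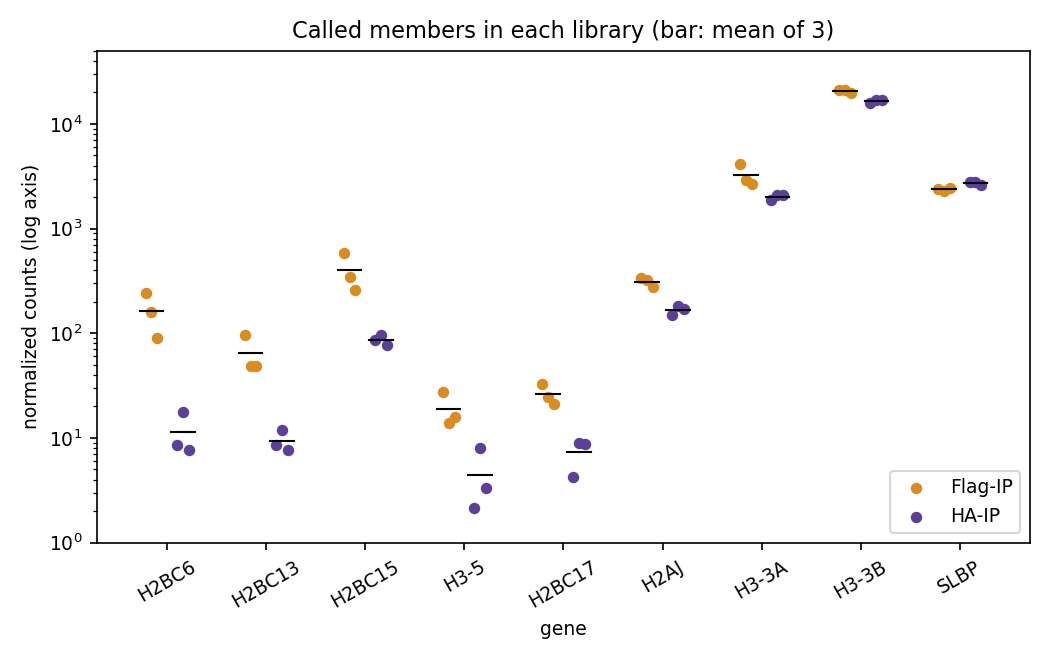
Normalized counts in each library (points) for the 9 members called, on a log axis, with a bar at the mean of the 3 libraries of a group. The Flag-IPs lie above the HA-IPs for 8 genes and below them for SLBP.

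Of the 16 replication-dependent genes of the H1, H2A, H3 and H4 families, none was called by limma, edgeR or DESeq2, and none had an unadjusted p under 0.05. Their levels were low, with a highest mean of 214 for H1-2. H1-2 held 264, 186 and 204 normalized counts in the Flag-IPs, compared with 193, 184 and 254 in the HA-IPs, a log2 difference of -0.05. H1-4 held 57.1, 86.1 and 65.5 in the Flag-IPs, compared with 69.9, 85.2 and 152 in the HA-IPs, where HA-IP replicate 3 stood above the rest, a log2 difference of 0.49 (limma adjusted p = 0.278).

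Of the H2A genes, H2AC11 had a mean of 56.3 ± 4.402 in the Flag-IPs and 47.6 ± 10.04 in the HA-IPs (SD, n = 3). H2AC6 had 42.9 ± 12.1 and 48.4 ± 5.95. Of the H3 genes, H3C6 had 73.6 ± 18.1 and 71.9 ± 13.5, and H3C10 had 75.2 ± 15.7 and 53.8 ± 14.7. Of the H4 genes, H4C8 had 86.5 ± 17.3 and 76.3 ± 1.32, and H4C9 had 65.2 ± 13.03 and 78.2 ± 16.7. The groups overlapped for each of these 6 genes, and none was called (limma adjusted p = 0.238 to 0.96).

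Over the 29 replication-dependent genes the median log2 difference was -0.21, with a range of -3.72 to 0.65, 22 genes lower and 7 higher in the HA-IPs, and the median became 0.0011 with quantile normalization and 0.06 with trends of GC content and length removed. Over all genes the median was -0.0049, with 51% of them lower in the HA-IPs. Over the 4939 genes with a mean under 100 normalized counts it was -0.11, and 38.8% of those genes had a difference above 0. By family the medians were -0.05 for H1, -0.11 for H2A, -0.28 for H2B, -0.26 for H3 and -0.31 for H4. Without the 4 called genes the median was -0.16. Among the 6 fits that left out a library, the median ran from -0.36 without HA-IP replicate 3 to -0.06 without Flag-IP replicate 1.

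The summed normalized counts of the 29 genes were 3290, 2566 and 2267 in the Flag-IPs, compared with 2015, 1971 and 2287 in the HA-IPs, so that HA-IP replicate 3 overlapped the Flag-IPs. The 4 called genes made up 956, 581 and 420 of these in the Flag-IPs, compared with 108, 136 and 101.4 in the HA-IPs, 18.5% to 29.1% of the sum against 4.44% to 6.88%. The other 25 genes summed to 2055 ± 251 in the Flag-IPs and 1976 ± 185 in the HA-IPs (SD, n = 3), a difference smaller than the spread. The 4 were picked by their calls in these libraries, so the split of the sum follows from that choice and is no separate result.

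**Figure D4:**
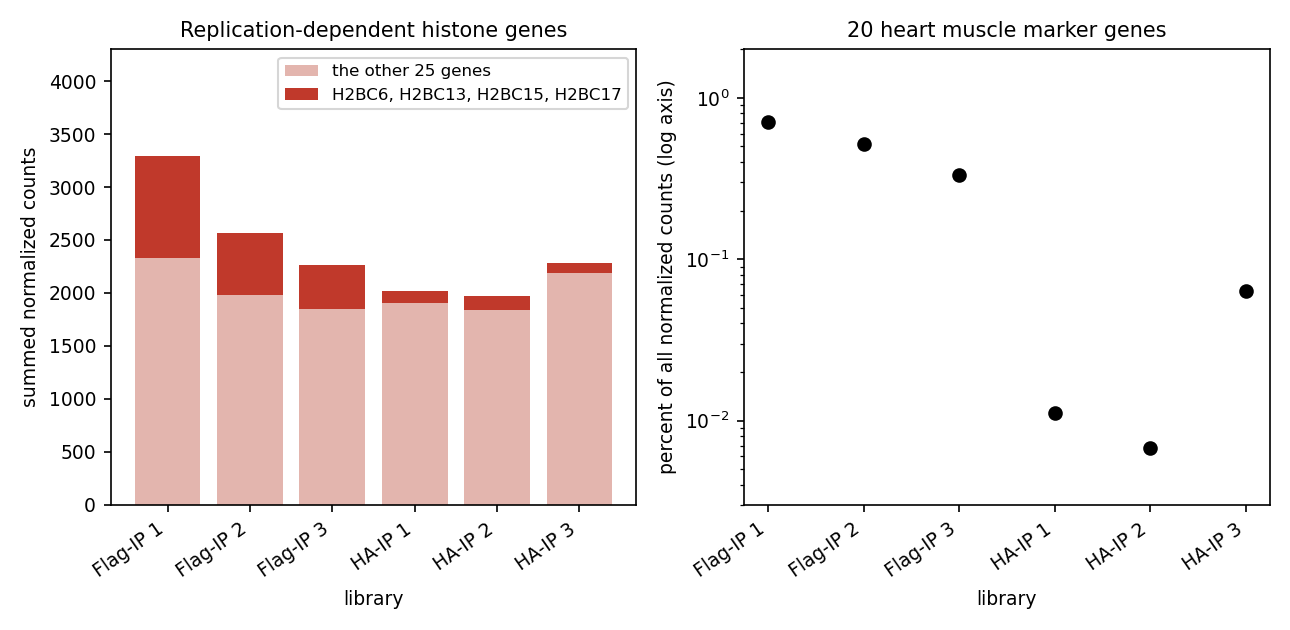
Left, summed normalized counts of the 29 replication-dependent histone genes in each library, with the 4 called H2B genes in dark red, 420 to 956 in the Flag-IPs and 101.4 to 136 in the HA-IPs. The 4 were picked by their calls. Right, percent of all normalized counts in 20 heart muscle marker genes on a log axis, 0.33 to 0.709 in the Flag-IPs and 0.00676 to 0.0635 in the HA-IPs.

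The stem-loop sequence of the 4 H2B genes was singled out because called members carry it, so comparing near matches does not test it. None of the 4 members with 1 base of difference from it was called, where 12.9% of all genes were. The 4 members with 1 difference had log2 differences of 0.49 for H1-4, -0.93 for H1-5, -0.50 for H2BC21 and -0.49 for H3C10. The 9 members with 2 differences lay between -1.24 and 0.65. The 12 replication-dependent genes with an annotated transcript past the stem-loop had a median of -0.23, and the 16 with a stem-loop and no such transcript had a median of -0.22, with 2 called genes in each. These are descriptions of annotated sequence, and the ends of the transcripts sequenced were not analysed here.

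The variants as a class were near all genes, with a median log2 difference of -0.03, but H3-3A and H3-3B, the genes of histone H3.3, were called higher in the Flag-IPs. H3-3B held 21034, 21045 and 19768 normalized counts in the Flag-IPs, compared with 15853, 16863 and 17078 in the HA-IPs. The groups did not overlap, and the log2 difference was -0.31 (SE 0.05, limma adjusted p = 0.00308). H3-3A, which encodes the same protein, held 4184, 2904 and 2657 in the Flag-IPs, compared with 1857, 2078 and 2098 in the HA-IPs. The groups did not overlap, Flag-IP replicate 1 was far above the rest, and the log2 difference was -0.66 (SE 0.13, limma adjusted p = 0.00901). Without HA-IP replicate 1 the log2 difference of H3-3A was -0.61 and it was not called (limma adjusted p = 0.0564).

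The ratio of H3-3B to H3-3A counts was 5.03, 7.25 and 7.44 in the Flag-IPs, compared with 8.54, 8.12 and 8.14 in the HA-IPs, so that H3-3A was the more unequal of the pair. Together both genes made up 37.5% to 41.5% of the variants' counts in the Flag-IPs and 32.8% to 33.4% in the HA-IPs. The variants summed to 60516 ± 661 in the Flag-IPs and 56296 ± 2138 in the HA-IPs (SD, n = 3). H3-5 held 27.3, 13.8 and 15.7 in the Flag-IPs, compared with 2.12, 7.92 and 3.31 in the HA-IPs, with a log2 difference of -1.96 (limma adjusted p = 0.0322). Its coding sequence is 96.6% identical to that of H3-3B, which is far more abundant. Its few reads, 3 to 21 a library, may thus belong to H3-3B. The mean was 4.25-fold higher in the Flag-IPs for H3-5 and 1.24-fold for H3-3B, and the origin of the H3-5 reads was not tested. With under 10 reads in every HA-IP, H3-5 had passed the filter through the Flag-IPs. Its call was lost in 4 of 6 fits without a library, those without Flag-IP replicates 1 and 2 and HA-IP replicates 1 and 3.

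H2AJ, an H2A variant with an altered end of the protein, held 334, 321 and 276 normalized counts in the Flag-IPs, compared with 151, 182 and 171 in the HA-IPs. The lowest Flag-IP stood well above the highest HA-IP. The log2 difference was -0.88 (SE 0.12, limma adjusted p = 0.00142), with a mean 1.85-fold higher in the Flag-IPs. It was called in all 19 alternatives run. In HA-IP replicate 3, the HA-IP with the most heart muscle counts, H2AJ lay between the other HA-IPs. H3-3A and H3-3B were at their highest among the HA-IPs there, but by little. They held 2098 and 17078, against 2078 and 16863 in HA-IP replicate 2. Whether RNA of other cells has a part in these differences was not tested.

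The H2A.Z genes, whose product marks promoters, were not called. H2AZ1 held 6796, 5359 and 4833 normalized counts in the Flag-IPs, compared with 4083, 4794 and 4957 in the HA-IPs. Flag-IP replicate 1 was highest and the other libraries overlapped, with a log2 difference of -0.29 (SE 0.11, limma adjusted p = 0.112). Without Flag-IP replicate 3 the difference of H2AZ1 was -0.39 and it was called (limma adjusted p = 0.0169). H2AZ2 held 2554, 2338 and 2332 in the Flag-IPs, compared with 2312, 2447 and 2290 in the HA-IPs, with a log2 difference of -0.03.

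H2AX, the variant phosphorylated at DNA breaks, held 4338, 5555 and 5707 in the Flag-IPs, compared with 5833, 5687 and 5220 in the HA-IPs, a log2 difference of 0.11 (SE 0.09). It is the variant with a stem-loop, at chr11:119094898-119094913 on the minus strand, and its annotated transcripts also run on past it. MACROH2A1, a variant with a large macro domain, held 10752, 11453 and 11291 in the Flag-IPs, compared with 11878, 12042 and 12061 in the HA-IPs. Every HA-IP was above every Flag-IP, but the log2 difference of 0.10 was not called (limma adjusted p = 0.162). MACROH2A2, its paralog, had 2858 ± 206 in the Flag-IPs and 2999 ± 141 in the HA-IPs.

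The linker variant H1-10 held 2814, 3742 and 4477 in the Flag-IPs, compared with 3827, 4844 and 4708 in the HA-IPs, with a log2 difference of 0.30 (SE 0.14, limma adjusted p = 0.195). The groups overlapped. It was called higher in the HA-IPs without Flag-IP replicate 3, with a log2 difference of 0.45 (limma adjusted p = 0.0198).

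**Figure D5:**
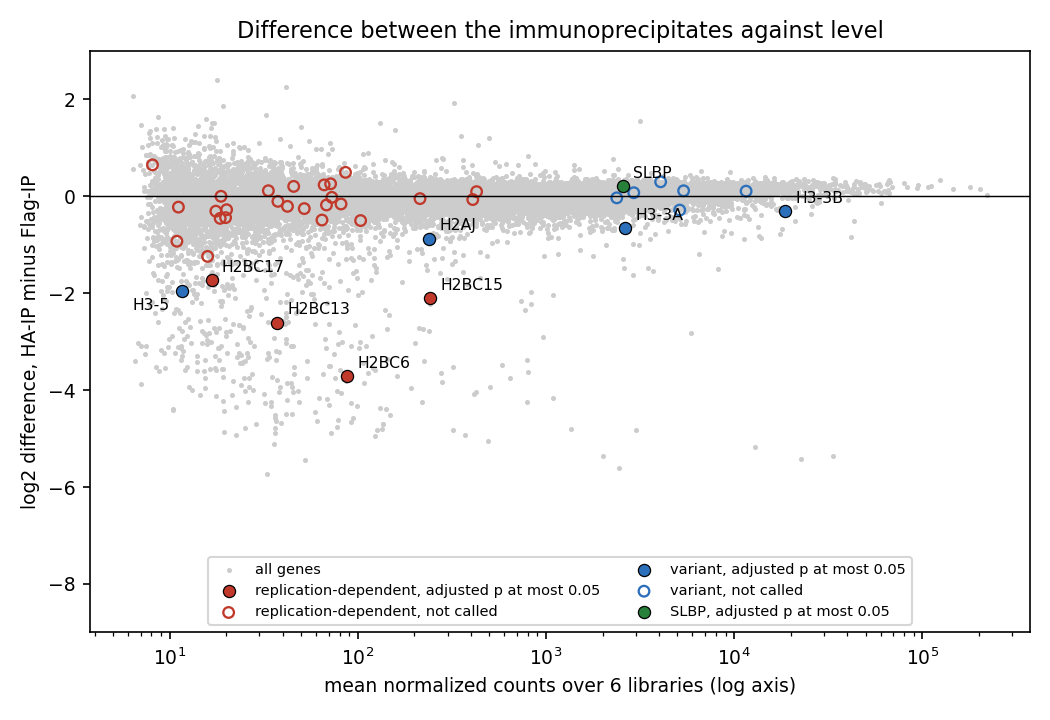
Log2 difference (HA-IP minus Flag-IP) against mean normalized counts over the 6 libraries on a log axis, for all genes (grey) and 40 of the members by class, filled where called. The 4 called replication-dependent H2B genes lie between -3.72 and -1.74, and the variants other than H2AJ and H3-5 lie between -0.66 and 0.30.

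SLBP held 2413, 2306 and 2419 normalized counts in the Flag-IPs, compared with 2776, 2807 and 2631 in the HA-IPs. Every HA-IP was above every Flag-IP, and the mean was 2380 ± 63.4 in the Flag-IPs and 2738 ± 93.9 in the HA-IPs (SD, n = 3). The log2 difference was 0.20 (SE 0.05, limma adjusted p = 0.0262), in a range of levels where small positive differences were frequent. Of the 5959 genes with a mean of 1000 or more, 14.4% were called higher in the HA-IPs, with a median log2 difference of 0.05. The call was lost without Flag-IP replicate 2, HA-IP replicate 1 or HA-IP replicate 2, where the difference was 0.18 to 0.19.

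Around SLBP, the factors of histone mRNA 3' end processing and turnover were measured for 20 of 20 listed genes, SLBP included. By limma 6 were called higher in the HA-IPs and the other 14 were not called, with a median log2 difference of 0.13 and 19 of 20 above 0. The share called in that direction was 5.79% over all genes and 14.4% over genes with a mean of 1000 or more, and 63.6% of the latter had a difference above 0. EXOSC10, a nuclease of the nuclear exosome, had a log2 difference of 0.24 (SE 0.05, limma adjusted p = 0.00797), with means of 6595 in the Flag-IPs and 7798 in the HA-IPs. MTREX, the helicase that feeds that exosome, had 0.23 (adjusted p = 0.0149), and UPF1, a helicase of mRNA decay that also acts on histone mRNAs, had 0.31 (adjusted p = 0.0151). UPF1 was the most abundant of the called genes of the list, with means of 14571 and 17985.

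The histone chaperones, which carry histones to and from DNA, were measured for 28 of 29 listed genes, of which 4 were called higher in the HA-IPs and 24 were not called, a share near the 14.4% of all genes with a mean of 1000 or more. Their median log2 difference was 0.09, with 25 of 28 above 0. MCM2, a subunit of the replicative helicase that also binds H3 and H4, had 0.26 (SE 0.05, limma adjusted p = 0.00798). SUPT16H, a subunit of FACT, had 0.20 (adjusted p = 0.035), MMS22L 0.17 (adjusted p = 0.0432) and NASP, a chaperone of soluble H3 and H4, 0.20 (adjusted p = 0.0435). None of these 4 was called with quantile normalization, where the differences were 0.10 for SUPT16H to 0.15 for MMS22L (limma adjusted p = 0.0542 to 0.112), and with equal totals MCM2 alone was. NCL, the most abundant of the list, was not called, with means of 59799 in the Flag-IPs and 64680 in the HA-IPs. Of 14 genes listed for deposition of H2A.Z and other variants, 12 were not called, with a median log2 difference of 0.08. ZNHIT1, a subunit of the complex that inserts H2A.Z, was higher in the Flag-IPs, with a log2 difference of -0.35 (adjusted p = 0.0337), and USP7, a deubiquitinase, was higher in the HA-IPs, with 0.22 (adjusted p = 0.0345). With trends of GC content and length removed ZNHIT1 had -0.12 (limma adjusted p = 0.404), and with quantile normalization neither was called, at -0.29 for ZNHIT1 (adjusted p = 0.064) and 0.12 for USP7 (adjusted p = 0.121). USP7 was not called with equal totals either, at 0.17 (adjusted p = 0.0562). Of the genes of these lists named as called, EXOSC10 alone kept its call in each of the 6 fits that left out a library, and without Flag-IP replicate 2 the others named apart from SLBP had adjusted p-values of 0.055 for MCM2 to 0.17 for USP7. The lists were adapted from textbook knowledge with earlier results of these data known.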

How the data were processed

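Libraries were made after poly(A) selection from 3 Flag-IPs and 3 HA-IPs of 1 HEK293-T Flp-In line. Per the labels and methods, the authors used Trimmomatic 0.36 for trimming, STAR 2.5.2b for mapping to GRCh38, and counted reads per gene with featureCounts (Subread 1.5.2) and excluded genes with few reads. The strand setting of the counting is not given in the sources used here. The authors deposited a signal per gene and library, in which the count of reads is scaled by that library's size factor. The deposited log2 fold changes and the deposited adjusted p-values of the authors' own comparison were not used.

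All 16834 genes entered limma 3.58.1 (R 4.3.3) on the log2 of normalized counts plus a pseudocount of 1, two-sided, letting the variance follow the mean, with Benjamini-Hochberg adjustment and calls at an adjusted p of at most 0.05. Whole reads were recovered from the values, within 0.01 reads for 100% of them, and edgeR 4.0.16 and DESeq2 1.42.0 on these reads were alternatives. DESeq2 called 2274 genes, edgeR 2131 and limma 2171. In simulated data with 200 genes changed by a log2 fold of 1 among 16834, limma recovered 200 with 8 false calls, edgeR 200 with 5 and DESeq2 200 with 17. The changed genes were drawn from those with a mean of at least 50, so recovery of lower genes or smaller differences was not tested. Gene positions, transcript lengths and stem-loops came from GENCODE release 44, which holds 99.1% of the identifiers, and promoters from RefSeq. The stem-loop was searched within 150 bases after the stop codon, and a transcript counts as running past it where it extends more than 50 bases. Genes under 100 normalized counts rest on few reads, and the spread between 3 replicates limits genes at any level, H2BC6 among them. How much each of these weighs was not tested. No batch is given in the labels.

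Named are the variants apart from 1 that is not reported here, SLBP, all called members, the 2 replication-dependent genes with the highest mean in each family, the extremes of fold change among members with a mean of at least 100 and, of each pathway list, up to 4 called genes by adjusted p and the most abundant one. The members, lists and rule were chosen with earlier results of these data known. Alternatives were other pseudocounts, filters, scalings, tools and thresholds, a replicate block, trends of GC content and length (MASS 7.3.60.0.1) and each library left out.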

Additional observations from a re-analysis of the deposited data

How the results depend on the processing

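H2BC6, H2BC13 and H2AJ kept their call in every alternative that could test them, 18 or 19 each. H2BC15 and H3-3B lost it when limma was run without the trend, H3-3A there and without HA-IP replicate 1, H2BC17 in 6 of 18, H3-5 in 9 of 18 and SLBP in 7 of 19. No named result changed direction while called. Without the trend, 188 genes were called, 3 histone genes were higher in the Flag-IPs, and SLBP had 0.20 (adjusted p = 0.128). With a mean of at least 50, 5 histone genes were higher in the Flag-IPs, because H2BC13, H2BC17 and H3-5 fall under that filter, and the replication-dependent median was -0.12. Quantile normalization gave a median of 0.0011 over the replication-dependent genes. Equal totals gave a variant median of -0.088, beside -0.06 for all genes, and SLBP at 0.15 (adjusted p = 0.0873). Removing trends of GC content and length gave a median of 0.056 over the replication-dependent genes, with 2 histone genes higher in the HA-IPs, H2BC20P and MACROH2A1. At an adjusted p of at most 0.01, 704 genes were called and SLBP, at 0.20, was not. Alternatives chosen after seeing the data gave the replication-dependent median as -0.23 for coding genes and -0.16 without the called genes.

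The replicate number as a block gave 1662 called genes, 1 histone gene higher in the HA-IPs, H1-10, and SLBP at 0.20 (adjusted p = 0.0546), and MMS22L (0.0651) and ZNHIT1 (0.0723) were not called. With the block and the trends removed, 2 histone genes were higher in the HA-IPs, H1-10 and MACROH2A1, and the replication-dependent median was 0.056. Whether same-numbered libraries share a culture is not stated in the sources used here. Their deviations correlated at -0.16, 0.03 and -0.31 over 13141 genes, and those of differently numbered pairs at -0.24 to 0.30, which does not settle it. Leaving out each library in turn gave 620 to 3059 called genes, 5 to 9 histone genes higher in the Flag-IPs, 0 to 1 higher in the HA-IPs, 0.18 to 0.23 for SLBP, -0.36 to -0.06 for the replication-dependent median and -0.06 to -0.01 for the variant median. The fewest genes were called without Flag-IP replicate 2 and the most without Flag-IP replicate 3.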

Other observations

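Histone genes that the symbol rule left out were looked up after the values were seen. H2AW, an H2A gene of the replication-dependent naming scheme under its newer symbol, held 408, 426 and 352 normalized counts in the Flag-IPs, compared with 302, 276 and 327.5 in the HA-IPs, and was called higher in the Flag-IPs with a log2 difference of -0.39 (SE 0.11, limma adjusted p = 0.0356). H2BU1, an H2B gene, held 70.1, 49.98 and 56.3 in the Flag-IPs, compared with 62.1, 48.5 and 76.1 in the HA-IPs, and the groups overlapped. H4-16 had means of 17.7 ± 7.83 and 20.2 ± 6.55 (SD, n = 3). CENPA, the H3 variant of centromeres, held 206, 180 and 217 in the Flag-IPs, compared with 255, 277 and 201 in the HA-IPs, with a log2 difference of 0.27 (limma adjusted p = 0.238).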
